A study of Mus musculus with 4 samples.

Results

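The Maf, Bach and Nrf factors are basic leucine zipper (bZIP) transcription factors, and 8 of their genes were followed here: Maf, Maff, Mafg, Mafk, Bach1, Bach2, Nfe2l1 and Nfe2l2. They were chosen by symbol, not by level, and all 8 were found among the 50600 genes of the count tables. RNA-seq was done on primary mouse T-helper 17 (Th17) cells of strain C57BL/6NJ, which the labels link to a differentiation protocol for CD4 T cells. There was 1 group of 4 libraries, biological replicates 1 to 4 in the labels, with no second condition, genotype or treatment. Age and developmental stage are given as unknown, sex was not collected, and all libraries carry the same donor identifier. Each library has a biosample entry of its own, but no label names its animal or culture, so p-values measure only the spread between these samples, which may be technical in part. The assay is named as total RNA in the labels, which nonetheless link a library protocol for polyA RNA.

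Th17 cells are helper T cells that make interleukin-17. A bZIP protein binds DNA as a dimer, and the factors described here fall into 2 classes that pair with each other. Maff, Mafg and Mafk, the small Maf proteins, have no activation domain of their own and act through their partners. The cap'n'collar (CNC) factors are activators, Nfe2l1 (Nrf1) and Nfe2l2 (Nrf2), or repressors, Bach1 and Bach2, and bind DNA together with a small Maf. Maf, also called c-Maf, is a large Maf with an activation domain that can bind as a homodimer and is known in T cells for driving interleukin-10, interleukin-4 and interleukin-21. Bach2 restrains effector differentiation of T cells, Nrf2 drives antioxidant genes, Nrf1 drives proteasome genes and Bach1 represses haem oxygenase.

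The split into classes can be read in the coding sequence of the DNA-binding basic region, which is shown for 7 of the genes because it is what the members have in common. The stretches are the coding strand, 5′ to 3′, from GENCODE M21 transcripts with mm10 positions. Each covers 27 codons, and capitals mark the conserved 9 codons in the middle of the region.
Mafg (chr11:120629539-120629619, minus strand): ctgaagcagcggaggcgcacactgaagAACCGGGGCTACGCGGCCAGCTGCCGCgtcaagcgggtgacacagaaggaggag
Mafk (chr5:139800202-139800282, plus strand): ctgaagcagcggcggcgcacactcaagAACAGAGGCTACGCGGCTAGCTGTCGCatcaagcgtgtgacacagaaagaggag
Maff (chr15:79357538-79357618, plus strand): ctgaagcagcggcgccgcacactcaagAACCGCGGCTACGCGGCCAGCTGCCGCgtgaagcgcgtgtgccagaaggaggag
Bach2 (chr4:32575342-32575422, plus strand): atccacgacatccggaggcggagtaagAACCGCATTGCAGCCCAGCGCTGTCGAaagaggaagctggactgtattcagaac
Bach1 (chr16:87722504-87722584, plus strand): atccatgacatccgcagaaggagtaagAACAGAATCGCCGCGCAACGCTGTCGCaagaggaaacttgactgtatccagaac
Nfe2l1 (chr11:96819452-96819532, minus strand): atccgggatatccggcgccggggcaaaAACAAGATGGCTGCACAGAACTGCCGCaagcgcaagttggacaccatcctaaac
Nfe2l2 (chr2:75676207-75676287, minus strand): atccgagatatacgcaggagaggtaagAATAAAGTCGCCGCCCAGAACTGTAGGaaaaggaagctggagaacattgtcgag
Over these 81 bases the small Maf genes were identical to each other at 69 to 72 positions and Bach2 to Bach1 at 67. Nfe2l2 and Nfe2l1 matched at 52 positions, no more than either of them matched a Bach gene, at 52 to 54. Maf matched the small Maf genes at 53 to 57. Any Maf gene and any CNC gene matched at 29 to 38 positions. The reading frames were 156 codons for Maff and Mafk and 162 for Mafg, against 380 for Maf, 597 for Nfe2l2, 739 for Bach1, 742 for Nfe2l1 and 839 for Bach2.

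Libraries held 24696730 to 37025016 fragments, of which 48501 to 75310 fell in the 8 genes. All 4 listed T-cell markers and all 7 listed Th17 markers reached 1 TPM in all 4 libraries, beside 44.8% of protein-coding genes. TPM is fragments per exon base on a common total. T-cell markers summed to 3369 to 3617 TPM and Th17 markers to 3578 to 3733 TPM. B-cell markers summed to 0.280 to 0.468 TPM with none of 4 at 1 TPM, and Pax5 and Ms4a1 had no fragment. Macrophage markers summed to 3.95 to 6.25 TPM, nearly all of it Cd68 at 5.24 ± 1.02 TPM, the ± here and throughout being the SD over n = 4, while C1qa and Lyz2 had no fragment. Natural killer and erythroid markers had no fragment, CD8 markers summed to 6.00 to 8.74 TPM and regulatory T-cell markers to 10.3 to 14.2 TPM. Of these lists, 2 of 2 regulatory T-cell, 1 of 2 CD8 and 1 of 5 macrophage markers also reached 1 TPM in all 4 libraries. Nearly all of the CD8 sum was Cd8b1, at 7.32 ± 1.16 TPM, with Cd8a at 0.102 ± 0.0523 TPM on 14 fragments in all. The 4 libraries formed 2 pairs, and the SDs and tests below treat them as 4 samples of 1 group. Chi-square over degrees of freedom was 3.41 between replicates 1 and 2 and 3.66 between replicates 3 and 4, against 6.39 to 7.95 across the pairs. Replicates 1 and 2 had 186 and 161 TPM of Xist, RNA of the inactive X chromosome, where replicates 3 and 4 had 0.687 and 0.721 TPM. For the Y-linked Ddx3y, replicates 1 and 2 had 0.442 and 0.446 TPM, where replicates 3 and 4 had 88.6 and 83.2 TPM. These values go against the shared donor identifier being 1 animal. In bulk RNA, fewer cells of a type and less RNA per cell cannot be told apart.

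All 8 genes were expressed. All 8 reached 1 TPM in each library, as did 44.8% of all protein-coding genes. A level of 10 TPM was reached by 7 of 8, beside 33.9% of protein-coding genes, and 100 TPM by 3 of 8, beside 8.72%. Their median level was 96.4 TPM, and that of all protein-coding genes 0.275 TPM. The highest and the lowest were both Bach genes.

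**Figure D1:**
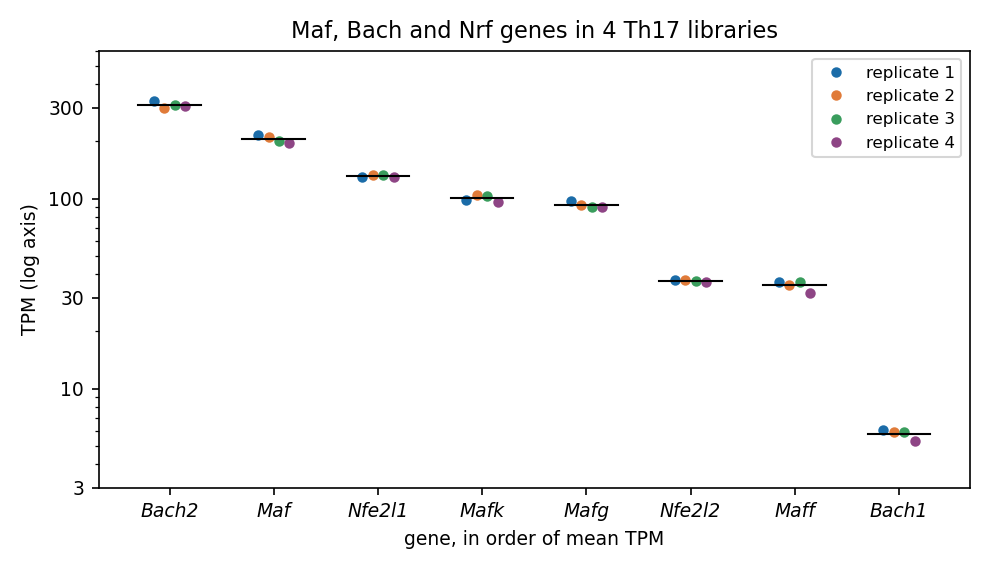
TPM (log axis) of the 8 genes in each of the 4 Th17 libraries, in order of mean TPM; points are libraries and black lines are means. The levels run from 311 TPM for Bach2 to 5.79 TPM for Bach1, and the ranges of neighbours overlap only for Mafk with Mafg and for Nfe2l2 with Maff.

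Among the partners of the small Maf proteins, Bach2, the repressor that holds back effector programmes in lymphocytes, was the most abundant. Bach2 (ENSMUSG00000040270.16, chromosome 4, 32238804 to 32586108 in mm10, plus strand) was at 327, 299, 312 and 308 TPM in replicates 1 to 4. It ranked 517 among 21764 protein-coding genes. Its highest library was 1.09 times its lowest. Bach1 (ENSMUSG00000025612.5, chromosome 16, 87698945 to 87733346, plus strand), its paralogue and a haem-sensing repressor, was at 6.08, 5.87, 5.91 and 5.31 TPM. The Bach1 values rested on 266 to 409 fragments per library, with a counting error of 5.42% of the value, close to the 5.77% spread seen between libraries. Bach2 averaged 311 ± 11.7 TPM and Bach1 5.79 ± 0.334 TPM, a ratio of 53.9 ± 3.04, and the log2 difference was 5.52 ± 0.07, with Bach2 above Bach1 in each of the 4 (sign-flip test, exact and two-sided, p = 0.125). That p is the smallest 4 libraries allow, so no contrast within libraries here can pass 0.05, and adjustment over the 4 contrasts, or over the 7 neighbours in the order of levels, leaves 0.125. The order was itself taken from the means of these 4 libraries, so the direction of its steps is not independently tested.

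The activators of the class stood between these extremes. Nfe2l1, whose protein is held in the endoplasmic reticulum membrane and is released when the proteasome is impaired, was at 130.2, 134, 134 and 129 TPM in replicates 1 to 4. Its gene (ENSMUSG00000038615.17) lies on chromosome 11, 96817414 to 96829968, minus strand. Nfe2l2 (ENSMUSG00000015839.6, chromosome 2, 75675513 to 75704641, minus strand), whose protein is degraded through Keap1 until oxidants or electrophiles release it, was at 37.4, 37.4, 37.0 and 36.3 TPM. Both were steadier in TPM than the other 6 genes, the highest library being 1.03 times the lowest for each. For Nfe2l2 the spread of 1.45% was below its counting error of 2.73%, so its steadiness is finer than the depth can resolve. Nfe2l2 averaged 37.0 ± 0.535 TPM against 132 ± 2.24 TPM for Nfe2l1, and the log2 difference of Nfe2l2 minus Nfe2l1 was -1.80 ± 0.02, with the same sign in 4 of 4 (exact sign-flip p = 0.125).

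Maf (ENSMUSG00000055435.6, chromosome 8, 115682942 to 115707794, minus strand) was at 215, 212, 201 and 196 TPM in replicates 1 to 4, second to Bach2. Both libraries with Xist RNA, replicates 1 and 2, were above both of the others, and the part of that difference between the pairs in the values of Maf was not tested. Bach2 exceeded Maf by a log2 difference of 0.59 ± 0.07, in 4 of 4 libraries, and by 0.38 when each gene was measured over its longest annotated coding transcript. Maf exceeded Nfe2l1 by 0.64 ± 0.06, and Nfe2l1 exceeded the next gene, Mafk, by 0.39 ± 0.03, again each in 4 of 4 libraries.

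The small Maf genes were led by a pair at similar levels. Mafk (ENSMUSG00000018143.10, chromosome 5, 139791513 to 139802653, plus strand) was at 98.2, 104, 103 and 96.4 TPM in replicates 1 to 4. Mafg (ENSMUSG00000051510.13, chromosome 11, 120625117 to 120633600, minus strand) was at 97.4, 92.1, 90.3 and 90.2 TPM. Mafk was above Mafg in every library, by a log2 difference of 0.12 ± 0.08, but their ranges overlapped. The difference was 0.26 with longest transcripts, which are 3097 of 3901 exon bases for Mafk and 4923 of 5613 for Mafg. Maff (ENSMUSG00000042622.13, chromosome 15, 79346621 to 79359076, plus strand), which inflammatory signals are known to induce, was lower, at 36.2, 35.0, 36.6 and 32.0 TPM. Its values and those of Nfe2l2 overlapped, with a log2 difference of Nfe2l2 minus Maff of 0.08 ± 0.07. That difference was 0.05 without replicate 4, the lowest library for Maff, and 0.57 with longest transcripts. Mafg lay above Nfe2l2 by 1.30 ± 0.04 and Maff above Bach1 by 2.40 ± 0.03, with no overlap of ranges.

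Summed over the class, small Maf transcripts were at 232, 231, 229 and 219 TPM in replicates 1 to 4, and transcripts of their 4 CNC and Bach partners at 501, 476, 488 and 479 TPM. The small Maf sum was thus 0.469 ± 0.0125 of the partner sum, a log2 difference of -1.09 ± 0.04, below zero in all 4 (exact sign-flip p = 0.125). Mafk made up 44.0% ± 1.17 of the small Maf sum, Mafg 40.6% ± 1.23 and Maff 15.3% ± 0.561. Bach2 made up 64.1% ± 1.04 of the partner sum, Nfe2l1 27.1% ± 0.863, Nfe2l2 7.62% ± 0.172 and Bach1 1.19% ± 0.0567. Protein was not measured. Maf averaged 206 ± 8.87 TPM against 228 ± 6.13 TPM for the 3 small Maf genes together, a log2 difference of -0.14 ± 0.04, below zero in all 4 (exact sign-flip p = 0.125). With longest transcripts it was -0.01 and below zero in 2 of 4, so the sign of this difference within a library depended on the length used.

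**Figure D2:**
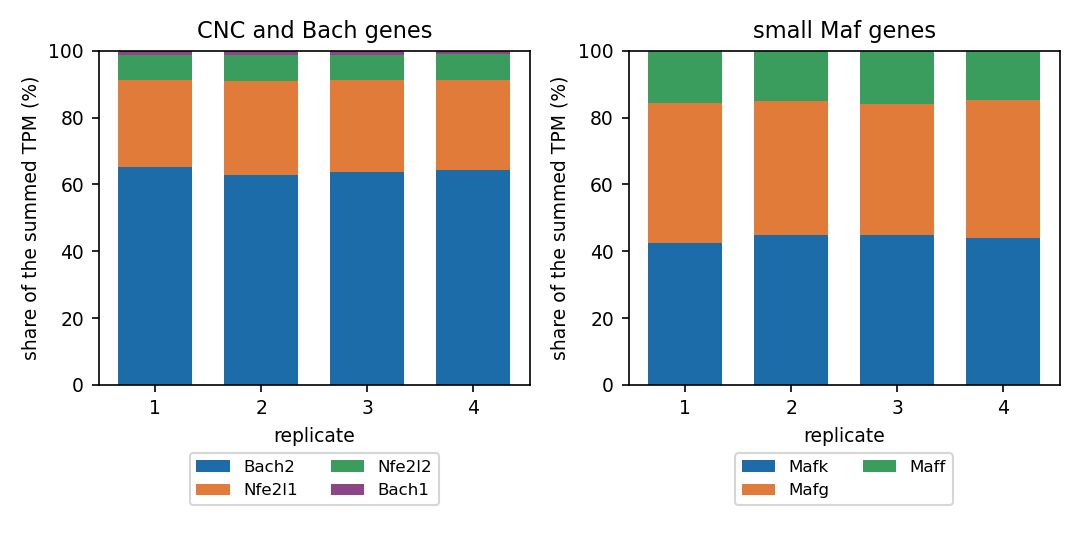
Share (%) of the summed TPM held by each CNC and Bach gene (left) and each small Maf gene (right) in replicates 1 to 4; the bars of a library add to 100%. Bach2 held 64.1% of the CNC and Bach sum on average, and Mafk and Mafg held 44.0% and 40.6% of the small Maf sum, with similar shares in the 4 libraries.

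Of the other genes of the CNC and Maf families, Mafa, Nfe2l3, Nfe2 and Nrl had mean levels under the floor of 3 fragments in the shallowest library. Mafa, a large Maf known from pancreatic beta cells, had 2 fragments over the 4 libraries. Nfe2l3 and the erythroid factor Nfe2 had 1 each, and Nrl, a photoreceptor factor, had none. That floor is 0.379 TPM for Mafa, 0.138 for Nfe2l3, 0.137 for Nfe2 and 0.163 for Nrl. Expression below those levels was not detectable at this depth, and such floors cover counting error only.

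Differences between the 4 replicates were small for every one of the 8 genes. None of the 8 was called more variable than genes of its abundance in edgeR's quasi-likelihood fit at an adjusted p under 0.05. The share called over the 11847 genes tested was 0.304%. None of the 8 had an unadjusted p under 0.05, beside 5.69% of genes tested, and limma-trend called none either. In the main edgeR fit, the lowest unadjusted p of a member was that of Maf, at 0.145 (edgeR adjusted p = 0.986). With replicate 1 left out, the lowest unadjusted edgeR p of a member was 0.105. The coefficient of variation of CPM scaled by TMM (trimmed mean of M values) was 4.20% for Maf, where the median of the 322 genes within 0.5 log2 units of its abundance was 2.59%. At the other end, Nfe2l2 had 1.51%, below its counting error of 2.73%, and the median of 1847 genes near its abundance was 3.98%. Bach2 varied by 3.04% and Nfe2l1 by 2.01%. The small Maf genes varied by 3.26% for Mafg, 3.81% for Mafk and 5.47% for Maff, and Bach1 by 5.38%. The share of genes of similar abundance with a lower coefficient of variation was 85.4% for Maf, 71.3% for Mafk and 66.1% for Mafg. It was 64.1% for Bach2, 55.2% for Maff, 31.8% for Nfe2l1, 29.3% for Bach1 and 4.44% for Nfe2l2. Replicate 4 was the lowest library for 7 of the 8 genes by TPM, all but Bach2, and for 5 of the 8 by TMM-scaled CPM.

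**Figure D3:**
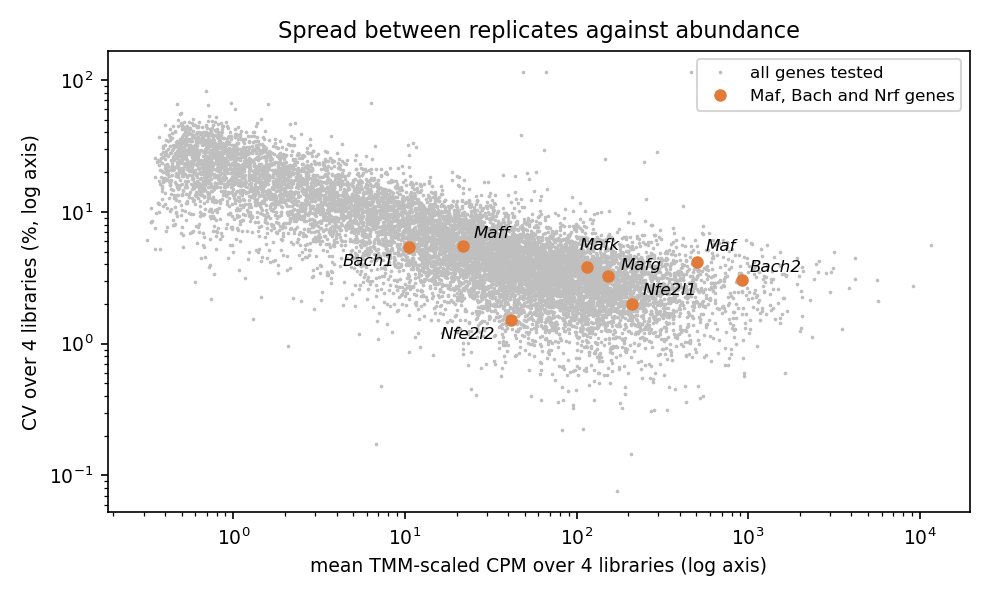
Coefficient of variation over the 4 libraries (%, log axis) against mean TMM-scaled CPM (log axis) for the 11847 genes tested (grey) and the 8 Maf, Bach and Nrf genes (orange). The 8 genes lie within the cloud of genes of their abundance, from 1.51% for Nfe2l2 to 5.47% for Maff.

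By level over the 4 libraries, the protein-coding gene closest to Bach2 was Ivns1abp, at 314 ± 12.5 TPM, with a root mean square difference of 0.027 in log2(TPM + 1). The closest to Maf was Rnf187 at 204 ± 8.54 TPM (0.013) and to Nfe2l1 Nudcd2 at 132 ± 1.92 TPM (0.0081). For the small Maf genes they were Wrnip1 for Mafk (0.015), Cpox for Mafg (0.016) and Cog5 for Maff (0.019), and for Nfe2l2 and Bach1 Gtf2e1 (0.011) and Zfp709 (0.028). Between 64 and 307 genes lay within 0.1 of each member, so the closest gene was 1 of many at a similar level.

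The listed genes that degrade or release Nrf2 protein were all expressed. All 8 reached 10 TPM in each library, beside 33.9% of protein-coding genes, and their median was 134 TPM. The peptidase Dpp3, which competes for Keap1, was at 185 ± 3.41 TPM, the kinase Gsk3a at 179 ± 1.85 TPM and the ubiquitin ligase scaffold Cul3 at 154 ± 3.51 TPM. Keap1 itself, the sensor that delivers Nrf2 to Cul3, had 44.7, 44.5, 47.0 and 46.8 TPM in replicates 1 to 4. Its range did not overlap that of Nfe2l2, which was lower in each library. Btrc, the adaptor of a second degradation route, was the lowest at 11.9 ± 0.792 TPM.

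Genes known to be induced by Nrf2 were uneven in level. Of 24 listed, 15 reached 1 TPM in each library, 13 reached 10 TPM and 9 reached 100 TPM, and the median was 27.9 TPM. Over all protein-coding genes the shares were 44.8%, 33.9% and 8.72%, and the median was 0.275 TPM. The ferritin heavy chain gene Fth1 was at 1578 ± 49.0 TPM, thioredoxin Txn1 at 1186 ± 29.3 TPM and the ferritin light chain gene Ftl1 at 469 ± 23.7 TPM. The classical Nrf2 reporter Nqo1, a quinone reductase, had 1.06, 0.703, 0.932 and 0.767 TPM in replicates 1 to 4, above 1 TPM in replicate 1 alone. The glutathione peroxidase Gpx2 had no fragment, and the floor in the shallowest library is 0.384 TPM. Without a second condition these levels do not measure Nrf2 activity.

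For Nrf1, the genes of its processing machinery and the proteasome genes it is known to drive were all expressed. All 8 listed processing genes reached 10 TPM in each library, beside 33.9% of protein-coding genes. The segregase Vcp, which extracts Nrf1 from the membrane, was at 306 ± 4.86 TPM, the co-regulator Hcfc1 at 212 ± 7.78 TPM and the glycosyltransferase Ogt at 115 ± 4.74 TPM, and the deglycosylase Ngly1 was the lowest at 15.1 ± 0.369 TPM. Of 33 proteasome genes, 32 reached 100 TPM in each library, beside 8.72% of protein-coding genes, and the median was 314 TPM. Psma2 and Psma6, subunits of the core particle, were at 978 ± 10.5 and 905 ± 19.3 TPM, the ATPase subunit gene Psmc5 at 699 ± 12.7 TPM, and the activator Psme4, at 60.8 ± 1.52 TPM, was the lowest.

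Around Bach1, 11 of 13 haem and iron genes reached 1 TPM in each library, beside 44.8% of protein-coding genes. The transferrin receptor Tfrc was at 896 ± 6.70 TPM, below Fth1 and above Ftl1. Hmox1, the haem oxygenase that Bach1 represses and Nrf2 induces, had 9.07, 11.1, 9.09 and 10.6 TPM in replicates 1 to 4. The values of Hmox1 lay above those of Bach1 in every library, and both were far below Fth1. No fragment of the iron exporter gene Slc40a1 was counted, where the floor is 0.0455 TPM.

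Genes that Bach2 is known to restrain in T cells were low or not detected, and 5 of 9 had a mean under the floor of 3 fragments in the shallowest library. Of the 9 listed, 1 reached 1 TPM in each library, beside 44.8% of protein-coding genes. The median was 0.0971 TPM, beside 0.275 TPM over all protein-coding genes. Gata3, the regulator of T-helper 2 cells, was at 1.54 ± 0.128 TPM and Il13 at 0.503 ± 0.258 TPM. Prdm1, the gene of the repressor Blimp-1 and a known target of Bach2, was at 0.214, 0.611, 0.5004 and 0.559 TPM in replicates 1 to 4, lowest in replicate 1. The spread of Prdm1 did not pass adjustment (edgeR adjusted p = 0.837, unadjusted 0.0427), and without replicate 1 the unadjusted edgeR p was 0.815. Klrg1 was without a fragment, where the floor is 0.289 TPM. There was no library without Bach2, so these levels do not show what Bach2 did.

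Upstream of Maf, all 10 listed receptors and factors reached 10 TPM in each library, beside 33.9% of protein-coding genes. Irf4, at 1647 ± 43.8 TPM, and Batf, at 594 ± 7.16 TPM, are factors that open Th17 genes, and Stat3, at 226 ± 6.62 TPM, carries the interleukin-6 signal. The interleukin-6 receptor gene Il6ra was the lowest at 31.7 ± 1.06 TPM. Of 13 genes tied to Maf in T cells, 9 reached 1 TPM in each library and 4 reached 100 TPM. Over all protein-coding genes these shares were 44.8% and 8.72%. The Maf-tied genes were uneven in level. Il2, which Maf is known to repress, was at 1615 ± 114 TPM, and Il21, which it is known to induce, at 331 ± 4.47 TPM. Il10, a direct target of Maf, was at 8.34, 9.79, 4.89 and 5.67 TPM in replicates 1 to 4, higher in replicates 1 and 2. The part of the Xist and Ddx3y split in the values of Il10 was not tested. The spread of Il10 did not pass adjustment (edgeR adjusted p = 0.610, unadjusted 0.0138). The B-lymphoid kinase gene Blk was the lowest, with 3 fragments in all and a floor of 0.165 TPM. No gene of these lists was called variable by edgeR, and the unadjusted p was under 0.05 for 3 of the 9 Maf-tied genes tested, 3 of the 10 upstream genes, 1 of 18 Nrf2 targets, 1 of 12 haem and iron genes, 1 of 2 genes restrained by Bach2, 0 of 8 Nrf2 regulators, 0 of 8 Nrf1 processing genes and 0 of 33 proteasome genes, beside 5.69% of all genes tested.

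**Figure D4:**
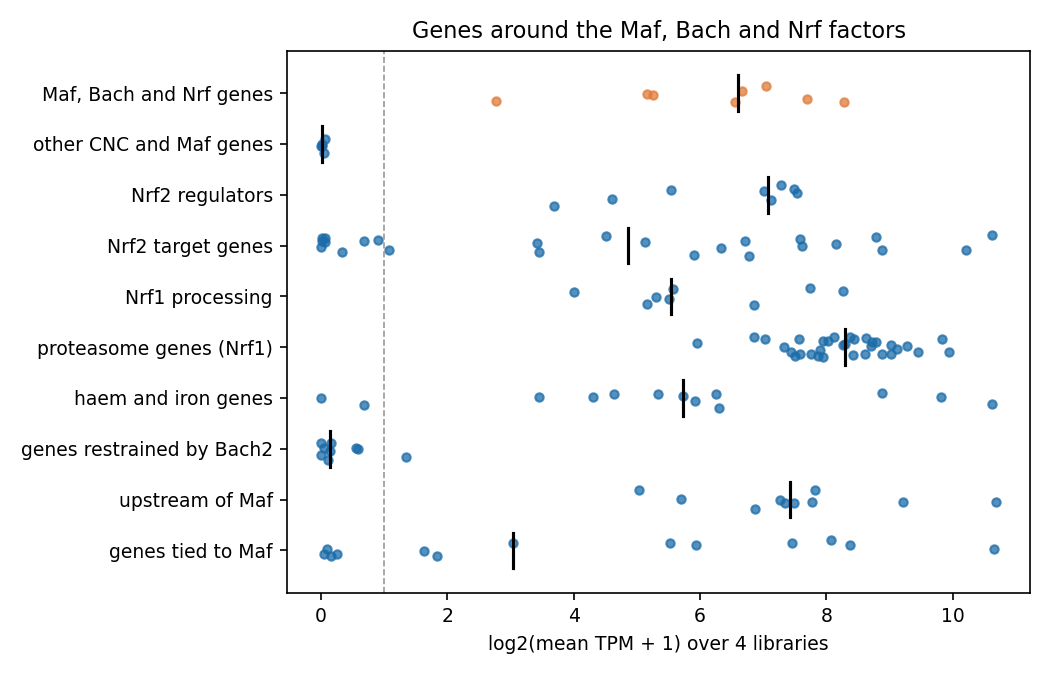
Mean level of each gene on the lists, as log2(mean TPM + 1) over the 4 libraries; points are genes, vertical bars are list medians, and the dashed line is 1 TPM. The 8 Maf, Bach and Nrf genes (orange) and the proteasome genes lie to the right of the line, and all but 1 of the genes restrained by Bach2 lie to its left.

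The DNA these factors are known to bind was looked for in promoters, taken as 250 bases before to 50 after the start site in RefSeq (GRCm38.p6). The core of the antioxidant response element, TGACNNNGC on either strand, is bound by CNC and small Maf dimers. Of the 7 matched members, without Maf, 4 had it in a window: Mafk, Mafg, Maff and Nfe2l2. Of all 27025 genes with a promoter in the table, 14.0% had it. The 7 members have 13 windows, more per gene than the table as a whole. Counted by window, it was in 4 of those 13, beside 12.4% of all 32851 windows. It was in the windows of 7 of 19 matched Nrf2 targets and 5 of 27 matched proteasome genes. On the other lists searched, it was in 4 of 8 matched Maf-tied genes, 2 of 8 genes restrained by Bach2 and 2 of 9 haem and iron genes. The motif TGANTCA, bound by AP-1 and Bach dimers, can overlap the first at a single site. It was in 0 of the 7 members and in 8.97% of all genes. Of the matched genes on the lists, 4 of 19 Nrf2 targets, Prdx1 among them, and 1 of 27 proteasome genes had it. It was in 2 of 8 genes restrained by Bach2, 2 of 8 Maf-tied genes and 0 of 9 haem and iron genes. The stretches around the match in the members are shown because they are the promoters of the partners themselves. They are on the strand of the gene, 5′ to 3′, with the match in capitals, which for Mafg and Mafk reads on the other strand.
Mafk (chr5:139791497-139791557, plus strand): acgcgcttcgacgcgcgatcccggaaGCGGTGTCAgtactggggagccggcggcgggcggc
Mafg (chr11:120633735-120633795, minus strand): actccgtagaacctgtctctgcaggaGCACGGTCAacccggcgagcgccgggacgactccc
Nfe2l2 (chr2:75704869-75704913, minus strand): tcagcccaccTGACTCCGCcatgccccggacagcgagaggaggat
Maff (chr15:79346483-79346543, plus strand): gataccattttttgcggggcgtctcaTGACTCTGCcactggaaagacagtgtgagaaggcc
The match lay 13 bases before the RefSeq start site in Mafk, 112 in Maff, 222 in Mafg and 240 in Nfe2l2. For Mafk, Mafg and Nfe2l2 that site differs from the GENCODE gene boundary given above, and the Mafk match lies inside the GENCODE gene. Of the listed Nrf2 targets with the motif, Prdx1, a peroxiredoxin gene at 439 ± 7.53 TPM, and Txnrd1, the thioredoxin reductase gene at 195 ± 4.38 TPM, were the most abundant. Their windows are shown in full.
Prdx1 (chr4:116685349-116685648, plus strand): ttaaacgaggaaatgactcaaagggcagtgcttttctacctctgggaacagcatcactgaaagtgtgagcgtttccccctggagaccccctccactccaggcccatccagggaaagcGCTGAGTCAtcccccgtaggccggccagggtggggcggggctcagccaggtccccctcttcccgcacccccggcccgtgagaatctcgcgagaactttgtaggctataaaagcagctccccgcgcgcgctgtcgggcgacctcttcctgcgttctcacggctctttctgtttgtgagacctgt
Txnrd1 (chr10:82858956-82859255, plus strand): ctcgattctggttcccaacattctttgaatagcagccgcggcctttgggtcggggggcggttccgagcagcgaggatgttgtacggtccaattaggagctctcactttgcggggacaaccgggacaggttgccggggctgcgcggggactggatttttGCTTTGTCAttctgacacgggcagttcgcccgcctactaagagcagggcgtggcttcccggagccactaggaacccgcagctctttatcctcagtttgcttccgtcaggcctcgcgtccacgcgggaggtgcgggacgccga
In both windows the match reads on the other strand, 133 bases before the start site in Prdx1 and 92 in Txnrd1. The capitals in Prdx1 also hold a TGANTCA match, and another TGANTCA match lies outside them, near the 5′ end of the window. A match of letters is not a bound site, and binding was not measured.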

How the data were processed

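RNA-seq counts of 4 Th17 libraries were used as deposited. Per the file headers, the authors counted fragments per gene over exons with featureCounts 1.4.6-p4, reverse stranded (option 2), both ends aligned, on GENCODE vM13; the build is mm10 per the labels. No source used here gives an aligner version. The recorded command sets no option to count fragments with several alignments or over several genes. On the same strand, 2.21% of the exon bases of Mafg overlap Sirt7. On either strand, other genes' transcripts hold 5.19% of the 50-base words of Bach2, 4.64% of Maf, 3.12% of Mafk and 1.34% of Mafg. Exons of genes on the opposite strand cover 5.40% of the exon bases of Bach2, 5.34% of Maf and 4.33% of Mafk. Words shared with those genes are counted too. The deposited tables also give the exon length per gene, used for TPM. The header's output names carry the tag 16hr, which the labels do not explain. Symbols, classes and coordinates came from GENCODE M21 (50376 of 50600 identifiers matched, version ignored). All rows were genes.

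TPM was count over length, scaled to the same sum in each library. Contrasts between genes used log2(TPM + 1), on which a fold understates the difference of low genes, with an exact sign-flip test over the 4 libraries and Benjamini-Hochberg adjustment. Variability used edgeR 4.0.16 in R 4.3.3 (TMM, filterByExpr, glmQLFit with an intercept, robust prior, legacy deviance), each gene's quasi-dispersion over the trended prior against an F distribution (upper tail, prior degrees of freedom at their maximum of 24.8 for every gene). On simulated counts of 11847 genes, 55% of changed genes with an extra log2 SD of 0.25 and 88% with 0.5 were recovered, and 3 of 146 calls were false. The changed genes were drawn only from genes of higher count, so recovery of low genes such as Prdm1 and Il10 was not simulated. Nor was an extra log2 SD under 0.25, so recovery of smaller spreads is not known. No pair of libraries matched within sampling noise (chi-square over degrees of freedom 3.41 or more), so none was merged. Alternatives were transcript length, other normalisation (DESeq2 1.42.0), filters, prior, limma 3.58.1, pseudocount and each replicate left out. The rest was done in Python 3.11.15 with scipy 1.17.1, pandas 2.3.3, matplotlib 3.10.9 and numpy 2.4.6.

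The members and lists were chosen with earlier results of these data known. Named are the 8 members, other genes of the CNC and Maf families, the 3 highest and the lowest gene of each other list, Keap1, Nqo1, Hmox1, Prdm1 and Il10, the closest gene in level to each member, and the 2 most abundant Nrf2 targets whose promoter holds the motif. Some genes that this rule names are not reported here.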

Additional observations from a re-analysis of the deposited data

How the results depend on the processing

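The order of the 8 genes was taken from the means of the same libraries, so leaving out 1 of them is not an independent check. It kept its direction at each of its 7 steps under longest transcript lengths, TPM without mitochondrial and ribosomal RNA genes, a pseudocount of 0.1 and each replicate left out. So did the fixed contrasts other than Maf minus the small Maf sum, which with longest transcripts was -0.01 ± 0.04, below zero in 2 of 4 libraries (exact sign-flip p = 0.625). Over these settings, the log2 difference lay between 5.49 and 5.73 for Bach2 minus Bach1, between -1.83 and -1.42 for Nfe2l2 minus Nfe2l1 and between -0.16 and -0.01 for Maf minus the small Maf sum. With longest transcripts the means were 252 TPM for Bach2, 193 for Maf, 111 for Nfe2l1, 91.1 for Mafk, 76.1 for Mafg, 41.0 for Nfe2l2, 27.3 for Maff and 4.40 for Bach1. The counts of list genes at 1, 10 and 100 TPM stayed within 1.5 times under every setting run, including a threshold on the mean over libraries. Over all genes, 36 of 11847 were called variable by edgeR, 94 of 20704 with no filter on low counts and 17 with a prior without robust estimation. Leaving out 1 replicate gave 15 to 37, the lowest without replicate 4, and the cause was not tested. No member was called in any of the 10 settings, with adjusted p between 0.928 and 1.000. No paired analysis was possible because there is only 1 group, so no replicate number is shared between groups. A comparison of replicates 1 and 2 with 3 and 4 was not made. Among the members depth limits Bach1 most, with 1386 fragments, and listed genes such as Il13, with 23, Nqo1, with 53, and Prdm1, with 99, more.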
